A study of Mus musculus with 2 samples.

Results

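The Wnt pathway of the liver lobule was followed here through 10 genes, which were picked by symbol from the 19465 genes listed in the files and were all found there. They comprised 3 ligand genes (Rspo3, Wnt2 and Wnt9b), 5 genes that β-catenin switches on in hepatocytes (Rnf43, Znrf3, Lgr5, Axin2 and Tbx3) and 2 landmarks of pericentral hepatocytes (Lhpp and Gulo). The data are a spatial transcriptomics (ST) assay, which asked whether zonal gene expression of hepatocytes changes when myeloid cells lose AEG-1. One section came from a mouse that lacks AEG-1 in its myeloid cells (AEG-1DMAC) and one from a floxed littermate (AEG-1fl/fl), so that each genotype had 1 library, on the same slide, and no replicate. Both mice carried the floxed allele, and in AEG-1DMAC a Cre driven by Lyz2 (LysM/Cre) deletes it in macrophages and other myeloid cells, whereas hepatocytes and endothelial cells keep it. Both were 27 weeks old, and the sample labels give both HF/HSD feeding, a diet rich in fat and sugar, for 20 weeks from an age of 7 weeks, whereas the methods of the study describe this assay as done on mice fed the control diet. The diet of these mice is therefore uncertain, although it carries the same label in both.

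Liver lobules run from portal tracts to a central vein. Endothelial cells of the central vein and of the sinusoids next to it secrete Wnt proteins and R-spondin 3, which keep β-catenin active in the nearest hepatocytes, and this in turn maintains the enzymes of the pericentral zone. R-spondins act by binding LGR receptors and removing the ubiquitin ligases RNF43 and ZNRF3, which would otherwise clear the Wnt receptors from the cell surface, and because Axin2, Rnf43, Znrf3 and Lgr5 are themselves transcribed in response to β-catenin, they serve as readouts of the pathway.

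The limits on UMIs and genes that the methods state were applied to the 2149 and 2543 spots in the files, whereupon 2140 spots with 45453286 UMIs (unique molecular identifiers, each standing for 1 captured probe pair) were kept in AEG-1DMAC and 2540 spots with 50322850 UMIs in AEG-1fl/fl. A median spot held 20929.5 and 18285 UMIs, respectively. The libraries share 1782 spot barcodes. The 5 hepatocyte markers (Alb, Apoa1, Ttr, Cps1 and Hnf4a) summed to 141096 and 205077 CPM, and all were present in both. A spot covers several cells of different types, so fewer cells of a type and less RNA per cell cannot be told apart. Mtdh, the gene of AEG-1, was measured at 66.3 and 60.2 CPM (UMIs scaled to a common library total) in AEG-1DMAC and AEG-1fl/fl, which does not check a deletion limited to myeloid cells. Probes bind each gene with their own efficiency, and levels were therefore compared between libraries and not between genes. All intervals below are exact 95% intervals that cover counting error only, and with 1 library a genotype no test was possible.

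The RefSeq table of promoters (GRCm38.p6) held 4 of the 10 genes, namely Axin2, Rnf43 (with 2 start sites), Wnt2 and Wnt9b. The 250 bases before the start site are shown for Axin2, the usual readout of the pathway, and for Wnt2 and Wnt9b, the endothelial ligand genes whose levels were about double or more in one library. They are written 5′ to 3′ on the strand of the gene, with the GC box GGGCGG (on either strand) in capitals. The windows are chr11:108920099-108920348 on the plus strand for Axin2, chr6:18030446-18030695 on the minus strand for Wnt2 and chr11:103749822-103750071 on the minus strand for Wnt9b. For Wnt2 and Rnf43 the RefSeq start sites lie inside the gene spans given below. The Wnt2 window therefore lies partly, and both Rnf43 windows wholly, within those spans.
Axin2: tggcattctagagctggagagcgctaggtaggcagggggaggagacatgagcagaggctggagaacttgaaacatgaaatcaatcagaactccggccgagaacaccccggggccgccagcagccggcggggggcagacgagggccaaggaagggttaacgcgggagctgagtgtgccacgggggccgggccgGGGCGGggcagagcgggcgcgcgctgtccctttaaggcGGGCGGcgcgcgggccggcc
Wnt2: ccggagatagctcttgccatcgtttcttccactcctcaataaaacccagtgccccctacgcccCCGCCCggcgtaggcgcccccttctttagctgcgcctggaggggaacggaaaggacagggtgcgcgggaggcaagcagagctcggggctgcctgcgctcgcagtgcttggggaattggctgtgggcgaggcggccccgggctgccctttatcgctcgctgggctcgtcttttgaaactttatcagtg
Wnt9b: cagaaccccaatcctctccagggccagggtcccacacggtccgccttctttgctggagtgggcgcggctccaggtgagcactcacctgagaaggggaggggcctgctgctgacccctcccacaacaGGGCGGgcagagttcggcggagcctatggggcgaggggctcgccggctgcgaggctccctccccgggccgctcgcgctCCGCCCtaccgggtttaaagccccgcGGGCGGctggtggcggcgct
The GC box occurred 2 times before Axin2, 1 time before Wnt2 and 3 times before Wnt9b, and it was absent from both Rnf43 windows, while 32.7% of all 32851 promoter windows of this length hold it. Bases G and C made up 69.2% of the Axin2 window, 63.6% of the Wnt2 window and 72% of the Wnt9b window, against 44.4% and 45.2% in the Rnf43 windows and a median of 52.4% over all windows. The letters CTTTGAT, the core that TCF/LEF factors bind, were in none of these 5 windows and in 3.21% of all windows. These matches describe the letters of short windows only.

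Between the genotypes, most genes of the set were higher in the AEG-1DMAC section than in the AEG-1fl/fl section. Wnt2 was about double, Lhpp, Znrf3 and Rnf43 were at least 1.5-fold higher, Axin2 and Gulo were higher by less, Rspo3 was level and Tbx3 was slightly lower. Lgr5 and Wnt9b had higher values too but rested on few UMIs. Of the 8 genes that averaged 1 CPM or more, 4 were at least 1.5-fold higher with an interval above equality, when 5.28% of all 11178 genes at that minimum met the same rule. None was at least 1.5-fold lower, a call that 3.9% of all genes received. Because the rule needs a mean level over both libraries, Lgr5 (mean 0.991 CPM) fell just short of the minimum and Wnt9b (mean 0.768 CPM) further below it. The median log2 ratio of the 7 hepatocyte genes was 0.65 and that of the 3 ligand genes 1.02, beside 0.13 for all genes tested.

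**Figure D1:**
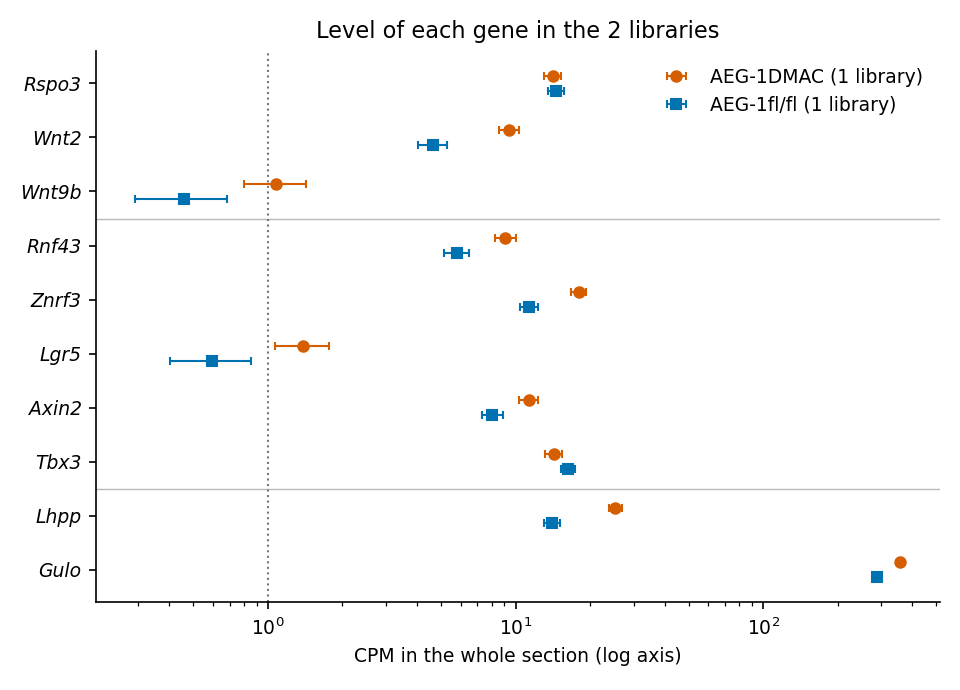
Level of each gene in the whole section, in CPM on a log axis, for the AEG-1DMAC library (circles) and the AEG-1fl/fl library (squares), with exact Poisson 95% intervals. The dotted line marks 1 CPM, and levels can be compared between the 2 libraries but not between genes. Wnt2 and Lhpp have the widest gaps among genes above the line in both libraries, and Rspo3 overlaps.

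Among the ligand genes, Wnt2 (chr6:17988940-18030585, minus strand, GRCm38), which encodes a Wnt protein of sinusoidal and central vein endothelium, was read 428 times in AEG-1DMAC and 233 times in AEG-1fl/fl, or 9.42 and 4.63 CPM. The ratio was 2.03-fold (1.73 to 2.40), the largest among the 8 genes above the minimum, and it exceeded that of 98.4% of all genes tested. Wnt9b (chr11:103727364-103749821, minus strand), the other endothelial Wnt gene of the central vein, had 49 and 23 UMIs, which gives 1.08 and 0.457 CPM. The log2 ratio was 1.24, and its interval ran from 0.50 to 2.02. Rspo3 (chr10:29452416-29535867, minus strand), which encodes the R-spondin of the central vein wall, went the way of neither Wnt gene. It had 644 and 732 UMIs, or 14.2 and 14.5 CPM, and its log2 ratio was -0.04, with an interval of -0.19 to 0.12 that lies within 1.5-fold on either side.

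Rnf43, Znrf3 and Lgr5, which dampen or amplify the signal at the receptor, all had higher levels in AEG-1DMAC, although Lgr5 lay below the minimum. Lgr4, another receptor for R-spondins, was level, with a log2 ratio of -0.01. Rnf43 (chr11:87662722-87735539, plus strand), a ubiquitin ligase that removes Wnt receptors, had 414 and 292 UMIs, or 9.11 and 5.80 CPM, a log2 ratio of 0.65 (0.43 to 0.87). Znrf3 (chr11:5276324-5444847, minus strand), its paralogue with the same role, had 820 and 572 UMIs, or 18.0 and 11.4 CPM, a log2 ratio of 0.67 (0.51 to 0.82). The ratios of both ligases overlap within counting error. Lgr5 (chr10:115450311-115587780, minus strand), a receptor for R-spondins found in the hepatocytes next to the central vein, had 63 and 30 UMIs, or 1.39 and 0.596 CPM, and the log2 ratio was 1.22 with an interval of 0.57 to 1.90.

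Axin2 and Tbx3, which both respond to β-catenin, differed in direction. Axin2 (chr11:108920349-108950783, plus strand), a scaffold of the complex that destroys β-catenin, had 515 UMIs in AEG-1DMAC and 406 in AEG-1fl/fl, or 11.3 and 8.07 CPM. Its log2 ratio was 0.49 (0.30 to 0.68). Tbx3 (chr5:119670669-119684724, plus strand), a transcriptional repressor of the T-box family, had 649 and 820 UMIs, or 14.3 and 16.3 CPM, and its log2 ratio of -0.19 (-0.34 to -0.04) was the only one of the 10 with an interval below 0. The intervals of these genes do not overlap each other.

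Of the landmarks, Lhpp (chr7:132610638-132706420, plus strand), a phosphatase of histidine and lysine residues, had 1151 and 704 UMIs, or 25.3 and 14.0 CPM. The ratio was 1.81-fold (1.65 to 1.99). Gulo (chr14:65986786-66009207, minus strand), which carries out the last step of vitamin C synthesis, had 16196 and 14494 UMIs, or 356 and 288 CPM, and thus the narrowest interval of the set, 1.24-fold (1.21 to 1.27). Lhpp and Gulo share a zone, but their ratios differed by far more than counting error.

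The ratios move with the scaling and, more so, with the way spots of the 2 sections are matched. With TMM factors, median-of-ratios factors or totals that leave out the 50 most abundant genes, the median of all genes shifted from 0.13 to between -0.013 and 0.005, and 2 genes, Lhpp and Wnt2, stayed at least 1.5-fold higher. No share of all genes past the fold is given for these scalings or for the joint bins below. When spots of both sections were placed in 10 bins of one joint zone index and CPM was averaged over the bins with equal weight, a setting chosen after seeing the data, none of the 8 genes above the minimum was at least 1.5-fold higher, while Lgr5 (0.61) and Wnt9b (0.65), below it, had values past that fold. Wnt2 then had a log2 ratio of 0.52, Znrf3 0.52, Rnf43 0.32 and Lhpp 0.26, while Axin2 (-0.09) and Gulo (-0.20) turned below 0. Tbx3 fell to -0.70, at least 1.5-fold lower, and Rspo3 was no longer level, at -0.54. The joint index puts 14.7% of AEG-1DMAC spots and 6.06% of AEG-1fl/fl spots in its most pericentral bin, and its pericentral markers were themselves higher in AEG-1DMAC, with log2 ratios of 1.35 for Cyp2e1, 1.05 for Cyp1a2 and 0.88 for Oat. The setting planned beforehand, the mean of the log2 ratios over the same joint bins, gave 0.76 for Wnt2, 0.56 for Znrf3, 0.38 for Rnf43 and 0.25 for Lhpp. It gave 0.13 for Axin2, -0.22 for Gulo, -0.44 for Rspo3 and -0.74 for Tbx3. A joint index of the periportal markers alone was also chosen after seeing the data. Its most pericentral bin held 10.4% and 9.69% of spots and its most periportal bin 15.2% and 5.59%, so that the sections stayed uneven at the periportal end. With it the same 4 genes were at least 1.5-fold higher, with log2 ratios of 1.02 for Wnt2, 0.84 for Lhpp, 0.65 for Znrf3 and 0.61 for Rnf43, and Rspo3 had -0.03. A larger pericentral share of the AEG-1DMAC section and higher pericentral RNA in spots of like position cannot be told apart from these data.

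Within each library the spots were ranked by an index that subtracts the periportal markers of the study (Pck1, Hal, Gls2, Cyp2f2, Hsd17b13 and Arg1) from its pericentral markers (Cyp2e1, Cyp1a2 and Oat), and cut into 3 equal parts. None of the 10 genes enters the index. Ligand genes and hepatocyte genes both rose toward the pericentral end in both sections, and with the exception of Znrf3 they did so steeply. At least 2-fold more CPM in the pericentral part than in the periportal part, with an interval above equality, was found for 9 of 10 genes in AEG-1DMAC. There 1.54% of all 11136 genes tested met the same rule. In AEG-1fl/fl it was found for 7 of the 8 genes above the minimum, against 1.59% of 11155 genes. Lgr5 and Wnt9b lay below 1 CPM there, and with them 9 of 10 genes passed.

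**Figure D2:**
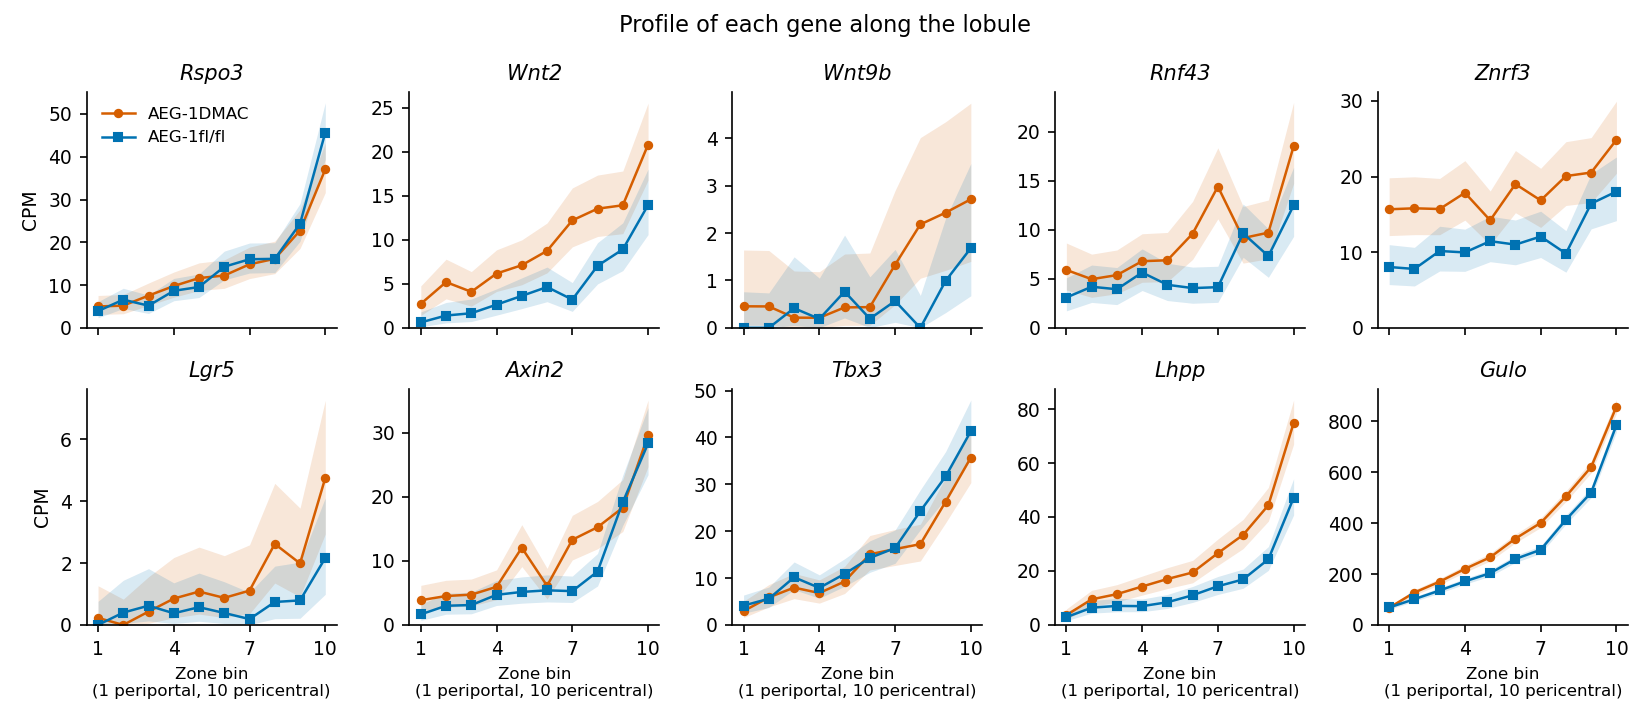
Profile of each gene over 10 bins of spots, from the periportal end (bin 1) to the pericentral end (bin 10), in CPM, for AEG-1DMAC (circles) and AEG-1fl/fl (squares). Shaded bands are exact Poisson 95% intervals, each bin holds 214 or 254 spots, and the vertical axes start at 0 and differ between genes. All 10 genes reach their highest value in bin 10 in both libraries.

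The ligand genes peaked where their targets did. Rspo3 was read at 6.16, 11.9 and 24.6 CPM in the periportal, middle and pericentral part of AEG-1DMAC, and at 5.98, 11.9 and 26.0 CPM in those of AEG-1fl/fl. The corresponding log2 steepness, pericentral over periportal, was 2.0 (1.67 to 2.34) and 2.12 (1.80 to 2.45). In each part, cut within each library, Rspo3 thus had like levels in the 2 libraries. Wnt2 stood at 4.04, 8.92 and 15.3 CPM in AEG-1DMAC and at 1.57, 3.5 and 8.94 CPM in AEG-1fl/fl, so that the middle part of AEG-1DMAC was level with the pericentral part of AEG-1fl/fl. Its steepness was 1.92 (1.51 to 2.36) and 2.51 (1.90 to 3.17). Wnt9b was the most confined of the ligand genes in AEG-1DMAC, with 75.5% of its UMIs in the pericentral part (37 of 49 UMIs), compared with 53.7% for Wnt2 and 57.3% for Rspo3. In AEG-1fl/fl 14 of its 23 UMIs lay there.

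The ligase genes were the shallowest of the set. Rnf43 went from 5.50 CPM in the periportal part to 12.7 CPM in the pericentral part of AEG-1DMAC, and from 4.05 to 8.88 CPM in AEG-1fl/fl, a log2 steepness of 1.2 (0.82 to 1.59) and 1.13 (0.71 to 1.57). Znrf3 went from 16.1 to 21.5 CPM and from 8.70 to 14.2 CPM, a steepness of only 0.41 (0.17 to 0.66) and 0.71 (0.40 to 1.02). Znrf3 was therefore measured over the whole lobule, and its pericentral part held no more than 39.3% and 40.6% of its UMIs. Lgr5, by contrast, was concentrated there, with 45 of 63 UMIs in the pericentral part of AEG-1DMAC and 4 in the periportal part, a steepness of 3.5 (2.04 to 5.44). In AEG-1fl/fl 17 of 30 Lgr5 UMIs were pericentral and 5 periportal, a steepness of 1.78 (0.29 to 3.58), and the wide intervals overlap.

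Axin2, Tbx3, Lhpp and Gulo were all steep, from 4.32-fold to 5.64-fold. Axin2 went from 4.64 to 20.3 CPM in AEG-1DMAC and from 2.90 to 16.3 CPM in AEG-1fl/fl, or 4.37-fold and 5.64-fold. Tbx3 rose 4.32-fold and 4.40-fold, Lhpp 5.62-fold and 4.93-fold, and Gulo 4.87-fold and 4.97-fold. The lowest of these 8 values, that of Tbx3 in AEG-1DMAC, lay above those of 99.7% of the genes tested.

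**Figure D3:**
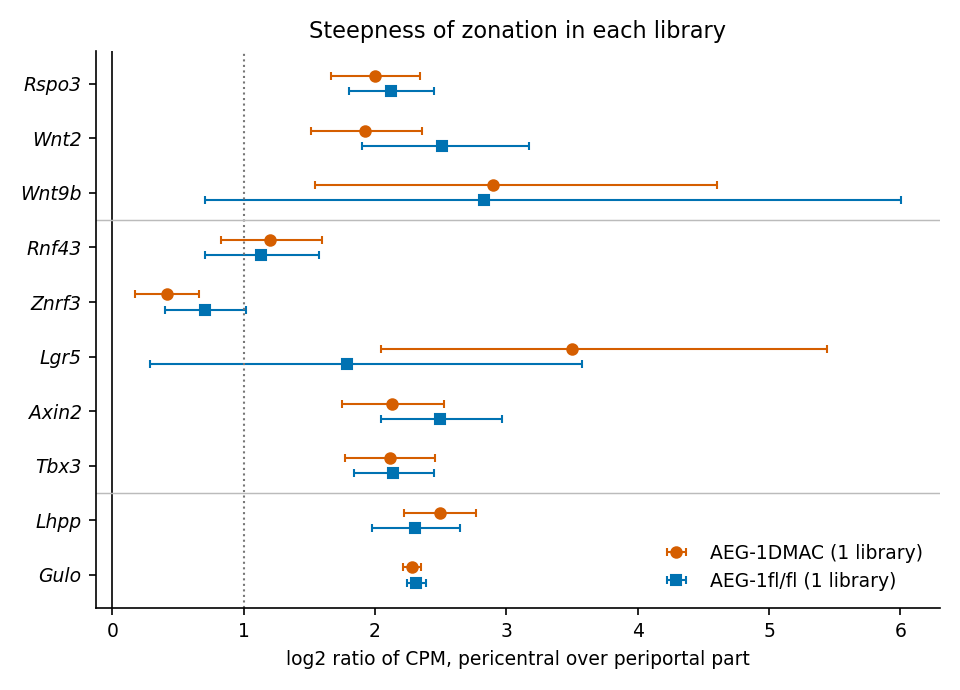
Steepness of zonation of each gene, as the log2 ratio of CPM in the pericentral part over the periportal part, for AEG-1DMAC (circles) and AEG-1fl/fl (squares), with exact conditional binomial 95% intervals. The dotted line marks 2-fold, and the intervals of the 2 libraries overlap for all 10 genes. Znrf3 is the only gene left of the line in both libraries.

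Between the genotypes, the intervals of steepness overlapped for each gene, which does not show that steepness was alike. It was greater in AEG-1DMAC for 4 of the 10 genes (Lgr5, Rnf43, Lhpp and Wnt9b) and smaller for the other 6. Lgr5 had the widest gap, 1.72 on the log2 scale, on few UMIs. The largest gap among genes above the minimum was that of Wnt2, whose log2 steepness was 1.92 in AEG-1DMAC and 2.51 in AEG-1fl/fl. For Gulo, the gene with the most UMIs, the gap of -0.03 is the best bounded, with intervals of 2.21 to 2.35 and 2.24 to 2.39. Over all genes, 172 were at least 2-fold pericentral in AEG-1DMAC and 177 in AEG-1fl/fl, and 262 and 155 were at least 2-fold periportal.

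The contrasts were sharper over the outer 10% of spots. Lhpp went from 3.63 CPM in the most periportal bin to 74.8 CPM in the most pericentral bin of AEG-1DMAC and from 2.89 to 47.1 CPM in AEG-1fl/fl. Gulo went from 67.2 to 857 CPM and from 68.5 to 785 CPM. For Axin2 the last bin was nearly equal between the libraries, at 29.6 and 28.4 CPM, whereas the bin at the periportal end held 3.86 and 1.65 CPM. The Axin2 excess of AEG-1DMAC was thus seen outside the last 2 bins, where AEG-1fl/fl stayed at 5.16 to 5.41 CPM in bins 5 to 7 and AEG-1DMAC ran from 6.12 to 13.3 CPM. Rspo3 and Tbx3 were the genes with a lower last bin in AEG-1DMAC, at 37.1 against 45.6 CPM and 35.7 against 41.3 CPM.

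By part of the lobule, cut within each library, Wnt2, Znrf3, Lhpp, Axin2 and Gulo were higher in AEG-1DMAC in each part, with all of their intervals above 0. The log2 ratio of Wnt2 was 1.36 in the periportal, 1.35 in the middle and 0.78 in the pericentral part. Lhpp had 0.66, 0.94 and 0.85, and Znrf3 0.89, 0.56 and 0.60. Rnf43 passed in the middle (1.0) and the pericentral part (0.51), while its periportal value of 0.44 had an interval that reached -0.04. The excess of Lgr5 and Wnt9b was seen where their UMIs were, in the pericentral part, with log2 ratios of 1.53 (0.69 to 2.43) and 1.52 (0.60 to 2.53). Tbx3 was lower there (-0.24, from -0.44 to -0.04), and Rspo3 was not distinguishable in any part. The median of all genes was 0.12, 0.14 and 0.12 in the 3 parts. With parts cut from one joint index, Wnt2 had 1.05, 0.49 and 0.56 in the periportal, middle and pericentral part, and Lhpp 0.36, 0.37 and 0.42. Znrf3 had 0.74, 0.68 and 0.33, and Rnf43 0.33, 0.54 and 0.36. Gulo changed sign in the periportal (-0.26), the middle (-0.17) and the pericentral part (-0.06), and Axin2 in the pericentral part (-0.16). Tbx3 then had -0.65, -0.66 and -0.59 in the 3 parts, and the pericentral value of Rspo3 was -0.49.

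**Figure D4:**
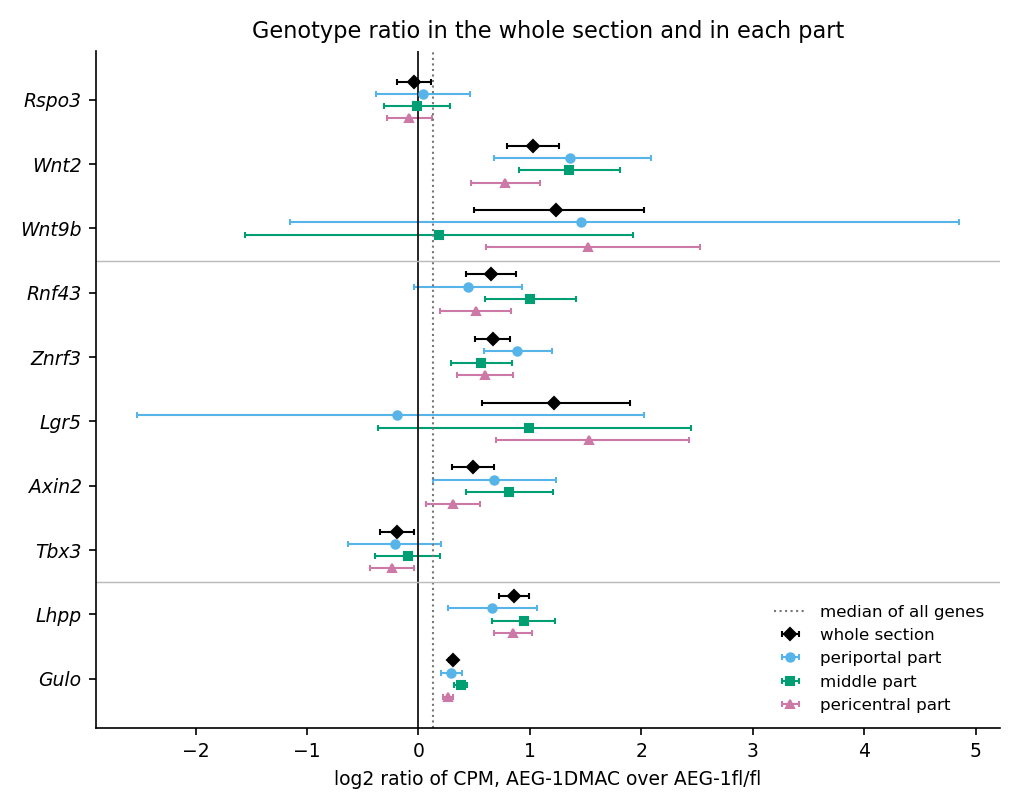
Genotype ratio of each gene, as the log2 ratio of CPM in AEG-1DMAC over AEG-1fl/fl, in the whole section (diamonds) and in the periportal (circles), middle (squares) and pericentral (triangles) part, with exact conditional binomial 95% intervals. The dotted line is the median of all genes in the whole section. Wnt2 and Lhpp lie right of it in every part, and Rspo3 and Tbx3 do not.

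The share of spots with a gene depends on depth, and was compared after thinning each spot to 10000 UMIs, which left out 26 shallower spots of AEG-1DMAC and 106 of AEG-1fl/fl. Wnt2 was then seen in 9.51% of spots (8.29 to 10.8) in AEG-1DMAC and in 4.11% (3.36 to 4.97) in AEG-1fl/fl, while unthinned it was seen in 17.3% and 8.62%. Rspo3 was seen in 12.4% and 12.9% of thinned spots, so that the Wnt2 gap was not shared by it. For Lhpp the shares were 19.6% and 12.1%, for Znrf3 17.2% and 10.4%, and for Tbx3 12.7% and 14.0%. Within the pericentral part, Lgr5 was seen in 18 of 701 and 7 of 800 thinned spots and Wnt9b in 17 and 8.

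Whether hepatocyte genes were higher next to a source of ligand was examined inside the pericentral part, since ligands and targets share that zone. Thinned spots with at least 1 UMI of Rspo3, Wnt2 or Wnt9b were set against spots with none. They numbered 240 and 461 in AEG-1DMAC, and 220 and 580 in AEG-1fl/fl. Axin2, Lhpp and Gulo were higher in spots with a ligand in both sections. An interval above 0 was found for 3 of the 7 hepatocyte genes in AEG-1DMAC, against 3.22% of all 10952 genes at 1 CPM or more in these spots, and for 4 of 7 in AEG-1fl/fl, against 3.33% of 11187 genes. Axin2 was read at 25.4 CPM with and 16.1 CPM without a ligand in AEG-1DMAC, a log2 ratio of 0.66 (0.15 to 1.17), and at 20.0 and 12.9 CPM in AEG-1fl/fl, which is 0.63 (0.06 to 1.19) on the log2 scale. Lhpp had log2 ratios of 0.45 (0.12 to 0.78) and 0.45 (0.02 to 0.87), and Gulo of 0.22 (0.13 to 0.31) and 0.32 (0.23 to 0.41). Tbx3 was higher with a ligand in AEG-1fl/fl, at 0.66 (0.25 to 1.07), and its AEG-1DMAC value was 0.22 (-0.24 to 0.68). The intervals of Rnf43, Znrf3 and Lgr5 spanned 0 in both.

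**Figure D5:**
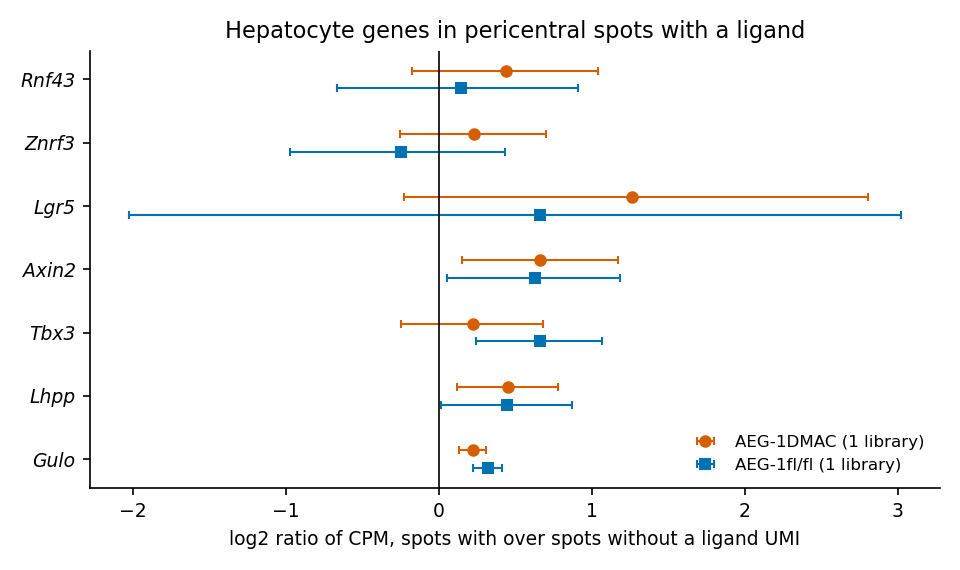
Hepatocyte genes in pericentral spots with at least 1 ligand UMI over spots with none, as the log2 ratio of CPM after thinning each spot to 10000 UMIs, for AEG-1DMAC (circles) and AEG-1fl/fl (squares), with exact conditional binomial 95% intervals. Axin2, Lhpp and Gulo lie right of 0 in both libraries.

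The pericentral index markers were higher in spots with a ligand too, with log2 ratios of their sum of 0.08 (0.06 to 0.10) in AEG-1DMAC and 0.28 (0.25 to 0.30) in AEG-1fl/fl. Spots with a ligand also lay deeper in the zone, at a mean percentile of 85.1 on the zone index against 82.1 for spots without one in AEG-1DMAC, and 86.3 against 81.8 in AEG-1fl/fl. The 5 markers of central vein endothelium summed to 76.2 CPM in spots with a ligand and 48.4 CPM in the others in AEG-1DMAC, and to 51.8 and 41.2 CPM in AEG-1fl/fl. In the outer 10% of spots, where position varies less, the log2 ratio of Axin2 was 0.62 (-0.14 to 1.38) in AEG-1DMAC and 0.09 (-0.71 to 0.87) in AEG-1fl/fl, that of Lhpp was -0.038 in AEG-1DMAC, and only Gulo in AEG-1fl/fl kept an interval above 0, at 0.22 (0.09 to 0.36). Of the 7 hepatocyte genes, 0 in AEG-1DMAC and 1 in AEG-1fl/fl thus had an interval above 0 there, against 2.02% and 1.7% of all genes. The part of position in the contrast was otherwise not tested. Rspo3 and Wnt2 were found together in 27 of 701 pericentral spots of AEG-1DMAC, where the product of their shares gives 22.6, and in 20 of 800 in AEG-1fl/fl, where it gives 14.6. Wnt2 and Wnt9b were found together in 0 spots of AEG-1DMAC, where the product gives 2.69, and in 2 of AEG-1fl/fl, where it gives 0.69.

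Endothelial markers were read beside the ligand genes, because endothelial cells are their main source. All 5 pan-endothelial markers were measured, none at least 1.5-fold apart, and they summed to 218 CPM in AEG-1DMAC and 213 CPM in AEG-1fl/fl. All 4 portal markers (Dll4, Efnb2, Ntn4 and Ltbp4) had lower values in AEG-1DMAC, with a sum of 64.2 against 98.4 CPM. Of these, 2 were past 1.5-fold (Dll4 and Ntn4), beside 3.9% of all genes. The 5 central vein markers summed to 41.0 against 28.0 CPM. Among them 3 of 4 tested were at least 1.5-fold higher (Cdh13 at 0.65, Kit at 0.62 and Vwf at 0.62 on the log2 scale), beside 5.28% of all genes. Set against the pan-endothelial sum, the log2 ratio of Wnt2 was 0.99 (0.76 to 1.23) and that of Rspo3 -0.07 (-0.23 to 0.08). Set against the central vein sum, Wnt2 had 0.48 (0.24 to 0.71) and Rspo3 -0.59 (-0.74 to -0.43). These intervals take the marker sums as fixed and hold the counting error of the ligand gene only, so they are too narrow. The median log2 ratio was -0.09 for 6 sinusoidal markers, -0.07 for 5 Kupffer cell markers, 0.24 for 5 cholangiocyte markers, -0.26 for the hepatocyte markers and -0.003 for 5 stellate cell markers. Single markers stood apart from these medians, since Marco (-1.38) and Fabp5 (-1.84) of the Kupffer cell list, Sox9 (-0.91) of the cholangiocyte list, Lyve1 (-0.84) of the sinusoidal list and Alb (-0.69) of the hepatocyte list were at least 1.5-fold lower in AEG-1DMAC. The log2 ratio of the summed hepatocyte markers was -0.54. Beyond these ratios, the part that the mix of endothelial cells had in the ligand levels was not tested.

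Of the other steps of the pathway listed here, the receptors and the TCF/LEF factors had genes past the fold. The share of all genes that passed was 5.28% for higher and 3.9% for lower levels. Of 10 tested genes for β-catenin and the complex that destroys it, none was at least 1.5-fold apart, with Axin1 the highest at 0.49, and their median was 0.17. Of 10 tested receptor genes, Fzd7 (21.9 against 11.6 CPM, log2 ratio 0.92) and Fzd8 (7.26 against 4.39 CPM, 0.73) were higher, none was lower, and the median was 0.20. Among 9 TCF/LEF factors and co-factors only Bcl9l passed, at 0.60. This list had a median of 0.43, and 7 of its ratios exceeded the all-gene median of 0.13. The 2 genes of Wnt secretion, Wls and Porcn, had log2 ratios of -0.10 and 0.13. Of 20 other Wnt and R-spondin genes, 6 had no UMI in either library and 3 reached 1 CPM. These 3, Wnt4 (0.36), Wnt5a (-0.14) and Wnt5b (-0.01), did not pass the fold.

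Other genes that β-catenin controls in pericentral hepatocytes were mostly higher as well. All 11 such genes tested were at least 2-fold pericentral in AEG-1DMAC and 10 of them in AEG-1fl/fl, beside 1.54% and 1.59% of all genes. Of the 11, 3 are the pericentral markers of the zone index, so their zonation follows from how the zone was defined. The shares of all genes leave the index markers out. The part of a larger pericentral share of the AEG-1DMAC section in the genotype ratios of the 11 genes was not tested. Of the 11 genes, 9 were at least 1.5-fold higher in AEG-1DMAC, beside 5.28% of all genes, none was lower, and the median was 0.88. The 9 higher genes included Slc13a3, a dicarboxylate transporter (14.3 against 4.51 CPM, log2 ratio 1.67), and Slc1a2, a glutamate transporter of the last hepatocyte rows (127 against 58.2 CPM, 1.13). Sp5, a transcription factor and target of the pathway, did not pass at 0.21, while it was the steepest of the list, with a zonation of 3.68 in AEG-1DMAC and 4.39 in AEG-1fl/fl. Of 6 tested Wnt inhibitors, 3 were higher, beside 5.28% of all genes. Notum (log2 ratio 0.78) and Nkd1 (0.60), which are also transcribed in response to β-catenin, lay on the pericentral side. Sfrp1 (78 against 22 UMIs, or 1.72 against 0.437 CPM) reached the minimum only through AEG-1DMAC, so that its call follows from the filter. Landmark genes of the zones had a median of -0.06 for 8 periportal genes (none higher, 1 lower) and of 0.43 for 6 pericentral genes (2 higher, Slc1a2 and Rhbg, and 1 lower, Aldh1b1). Of all genes, 5.28% were higher and 3.9% lower. Aldh1b1 went against its place in the list, since its zonation was periportal in both sections (log2 steepness -2.17 in AEG-1DMAC and -1.93 in AEG-1fl/fl).

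Over the 20 points given by 10 zone bins in each library, the profiles of ligand genes and hepatocyte genes ran together, with a Pearson r of 0.95 between Wnt2 and Axin2, 0.95 between Rspo3 and Axin2 and 0.96 between Rspo3 and Wnt2. Wnt9b, with few UMIs, followed less closely, from 0.65 with Rnf43 to 0.82 with Axin2. These points share their libraries and their zone index, and r is a description. Among 6912 other genes that averaged 10 CPM or more, Cyb5a (r = 0.995), Entpd5, Slc1a2, Gstm2 and Rbp4 followed the mean of the hepatocyte genes most closely. Ces2c (r = 0.989), Fitm1, Rbp4, Gstm2 and Serpina7 followed that of the ligand genes. Each library was centred in this search, so that r compared the shape of profiles and not their steepness or genotype ratio. The log2 zonation in AEG-1DMAC and AEG-1fl/fl was 0.32 and 0.35 for Rbp4, and 3.29 and 3.03 for Slc1a2. The genotype ratios of these genes differed, from -1.46 for Serpina7 to 1.23 for Ces2c on the log2 scale.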

How the data were processed

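Liver sections were assayed by the authors with 10x Visium for fixed tissue, in which probe pairs are hybridised to the transcriptome. Per the labels, Space Ranger 2.0.1, Seurat 4.3.0 and the mm10 build were used, and the authors deposited raw UMI counts per gene and spot, with no normalisation. Groups came from the genotype labels. The files hold 2149 and 2543 spots, the numbers that the study's results give for spots left after its filter. The stated limits (at most 50000 UMIs, 100 to 7000 genes) were applied again and left 2140 and 2540. Counts were summed and scaled to CPM with Python 3.11.15, numpy 2.4.6, scipy 1.17.1 and pandas 2.3.3. Intervals were exact (Poisson, Clopper-Pearson, conditional binomial) at 95%. No p-value was computed, since spots are not replicates. The ratio and zonation steps were tested on simulated data. The genes and the 19 lists beside them were chosen with earlier results of these data known. From each list at most 4 genes were named, those with the largest genotype ratio or zonation at a mean of at least 1 CPM, and 5 genes per profile search. The markers of the zone index and of hepatocytes were named in full to define them, and Lgr4 was named after its value was seen. Gene positions came from GENCODE M21 and promoters from RefSeq, both on GRCm38, and 6 of the 10 genes overlap another annotated gene. Glul, Cyp2a5 and Fzd5 were not analysed here. Alternatives for scaling, spot filter, depth, zone index and fold were run, 3 of them chosen after seeing the data.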

Additional observations from a re-analysis of the deposited data

How the results depend on the processing

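The main limit is that each genotype has 1 library, so intervals hold counting error and not the spread between mice or sections, and Lgr5 and Wnt9b rest on few UMIs. No paired analysis was possible because each genotype has 1 library and no result comes from a test. Of the 8 genes tested, 4 were at least 1.5-fold higher in AEG-1DMAC, beside 5.28% of all genes. The number was 2 with TMM factors, with median-of-ratios factors and with totals that leave out the 50 most abundant genes. It was 0 with CPM averaged over 10 joint zone bins (a setting chosen after seeing the data) and 1 at 2-fold. No share of all genes is given for these other settings, so their counts have no background. Under the joint bins 1 gene was lower and the median log2 ratio of the hepatocyte genes was 0.26. The setting planned beforehand took the mean of the log2 ratios over the joint bins in place of the ratio of mean CPM. It left 1 gene higher, Wnt2 at 0.76, with Lgr5 and Wnt9b undefined. The joint index differs from the index within each library in the spots it compares, and the cause beyond that was not tested. Over genes that averaged 10 CPM or more, 4.30% of all genes were higher and 1.79% lower. The outer 10% of spots, in place of 3 parts, compares the ends of the gradient. With it the median log2 zonation of the hepatocyte genes became 3.60 in AEG-1DMAC and 3.52 in AEG-1fl/fl, and that of the ligand genes 2.89 and 4.49. Lgr5 and Wnt9b of AEG-1fl/fl had no finite value there, with 0 periportal UMIs, and these medians rank them above all others. The 4.49 is thus the value of Wnt2 itself, on 3 periportal UMIs (2.87 to 6.81), while Rspo3 had 3.54. The ligand medians of the 2 libraries are therefore not like for like. Within that outer 10% the number of hepatocyte genes higher in spots with a ligand went from 3 to 0 in AEG-1DMAC (2.02% of all genes there) and from 4 to 1 in AEG-1fl/fl (1.7% of all genes), and Lhpp in AEG-1DMAC changed sign to -0.038, on fewer spots. Other indices, all deposited spots and thinned spots left 9 pericentral genes in AEG-1DMAC and 8 or 9 in AEG-1fl/fl, genes below the minimum included. No share of all genes is given beside these counts.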
